A study of Mus musculus with 10 samples.

Results

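The RNA level of 8 genes that are grouped around the RNA-binding protein Lin28 and the let-7 microRNAs was followed in 5 mouse lines and their passages. The genes were Lin28a, Lin28b, Trim71, Hmga1, Hmga2, Igf2bp1, Igf2bp2 and Igf2bp3, chosen by name as genes of the Lin28/let-7 axis and as oncofetal genes, and all 8 were found among the 18901 genes listed. Genes were tested if 2 or more libraries reached a value of 10, which all 8 did and which left 17075 genes. Of the 8, 6 reached it in every library, and Lin28a and Lin28b fell below it in 1 library, that of fibroblasts at passage 4.

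Oct4-GFP mouse embryonic fibroblasts (MEF) were set beside pre-iPS cells, iPS cells called 'control', and 2 iPS clones called 'rNetrin-1-derived', which are clone 1 and clone 2 in the text. All came from animals described as a cross of mf1 and 129. The pre-iPS and iPS lines had been made with retroviruses carrying Oct4, Sox2, Klf4 and c-Myc, so these lines received the viral factors and MEF did not. The paper describes the pre-iPS cells as partially reprogrammed, with retroviral transgenes that are not silenced and an Oct4/GFP locus that is not reactivated. The part of lasting transgene expression in the values below was not tested. The iPS clones called 'rNetrin-1-derived' had been reprogrammed with recombinant Netrin-1, a secreted guidance protein, in the medium. Each line gave 2 poly(A) libraries, at passages 2 and 4 for MEF and at passages 5 and 25 for the other lines. MEF grew in DMEM with FCS and iPS cells in KSR with LIF, so that culture medium and cell state cannot be told apart. The 2 libraries of a line are passages of 1 line and not independent clones, which means that p-values measure the spread between these libraries. In particular, the control was a single line.

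Lin28a and Lin28b bind the precursors of let-7 and keep them from being made into mature microRNA, a step at which uridylation of the precursor and its decay by Dis3l2 take part. Mature let-7 in turn pairs with sites in the 3′ UTR of its targets, among them Lin28a, Lin28b, Trim71, Hmga2 and Igf2bp1, and lowers their RNA and protein. Lin28 is high in early embryos and pluripotent cells, let-7 is high in differentiated cells such as fibroblasts, and several of the targets are called oncofetal because they are on in embryonic tissue, off in most adult tissue and on again in tumours. Poly(A) libraries of this kind do not measure mature let-7, so its level in these lines was not analysed here.

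The sequences that define the axis are shown first. The reference table of mouse microRNAs (RefSeq, GRCm38.p6) named 11 mature sequences of the family, and 10 of them, from 12 loci, carried the same seed, which is bases 2 to 8 from the 5′ end and is what pairs with targets. Shown are 4 members that differ outside the seed, with the seed in capitals.
let-7a-5p: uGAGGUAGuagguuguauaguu
let-7d-5p: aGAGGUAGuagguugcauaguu
let-7g-5p: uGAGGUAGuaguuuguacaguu
miR-98-5p: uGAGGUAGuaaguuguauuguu

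The precursor is where Lin28 acts, and the motif GGAG in its loop region is a known contact of Lin28. The stretch from the first base of the 5′ arm to the last base of the 3′ arm is shown for 2 loci on GRCm38.p6, with GGAG in capitals where it occurs after the 5′ arm.
Mirlet7g (+ strand of chromosome 9): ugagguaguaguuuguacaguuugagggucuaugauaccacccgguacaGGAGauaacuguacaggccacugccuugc
Mirlet7b (+ strand of chromosome 15): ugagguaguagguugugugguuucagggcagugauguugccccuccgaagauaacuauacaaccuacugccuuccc
GGAG lies in this position in Mirlet7g and in Mirlet7a-1, Mirlet7c-1, Mirlet7d, Mirlet7e, Mirlet7f-1, Mirlet7f-2 and Mirlet7i, and these letters are not in this window in Mirlet7b, Mirlet7c-2, Mir98 and Mir7k.

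The letters CTACCTC, the reverse complement of the seed, were searched on the sense strand of the longest annotated 3′ UTR of each gene (GENCODE M21, GRCm38, the build that the submitters' processing notes name as mm10). Each of the 8 genes held at least 1 match, and 9.02% of the 21007 genes with a 3′ UTR did. Since the genes were picked partly as let-7 targets, this share is a description of the choice. Lin28b, Trim71, Hmga2 and Igf2bp1 held 4 matches each, Lin28a held 2, and Hmga1, Igf2bp2 and Igf2bp3 held 1. At least 3 matches were found in 0.152% of all genes, which are 32 genes. One site of each gene is printed with 15 bases before it, the match in capitals and a following A, where present, also in capitals, because an A there is part of the strongest class of site.
Lin28a (chr4:134005189-134005211, - strand): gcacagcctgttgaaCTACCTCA
Lin28b (chr10:45381022-45381044, - strand): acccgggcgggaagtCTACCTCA
Trim71 (chr9:114512472-114512494, - strand): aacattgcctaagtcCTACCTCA
Hmga1 (chr17:27563277-27563299, + strand): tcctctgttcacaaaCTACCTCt
Hmga2 (chr10:120364224-120364246, - strand): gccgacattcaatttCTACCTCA
Igf2bp1 (chr11:95961778-95961800, - strand): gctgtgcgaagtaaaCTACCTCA
Igf2bp2 (chr16:22059473-22059495, - strand): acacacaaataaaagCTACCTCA
Igf2bp3 (chr6:49086787-49086809, - strand): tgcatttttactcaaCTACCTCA

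The printed sites of Lin28b and Hmga2 begin 36 and 58 bases after the stop codon, the closest of all the matches found in the 8 genes. In Trim71, 2 matches lie 166 and 262 bases after the stop codon and 2 more lie close together, at 3591 and 3617 bases. All 4 matches of Trim71 and both of Lin28a are followed by A. The match of Hmga1 is not. Per kb of 3′ UTR the matches ranged from 0.472 in Igf2bp3 to 1.327 in Hmga2, against 0.07 over all 3′ UTRs.

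**Figure D1:**
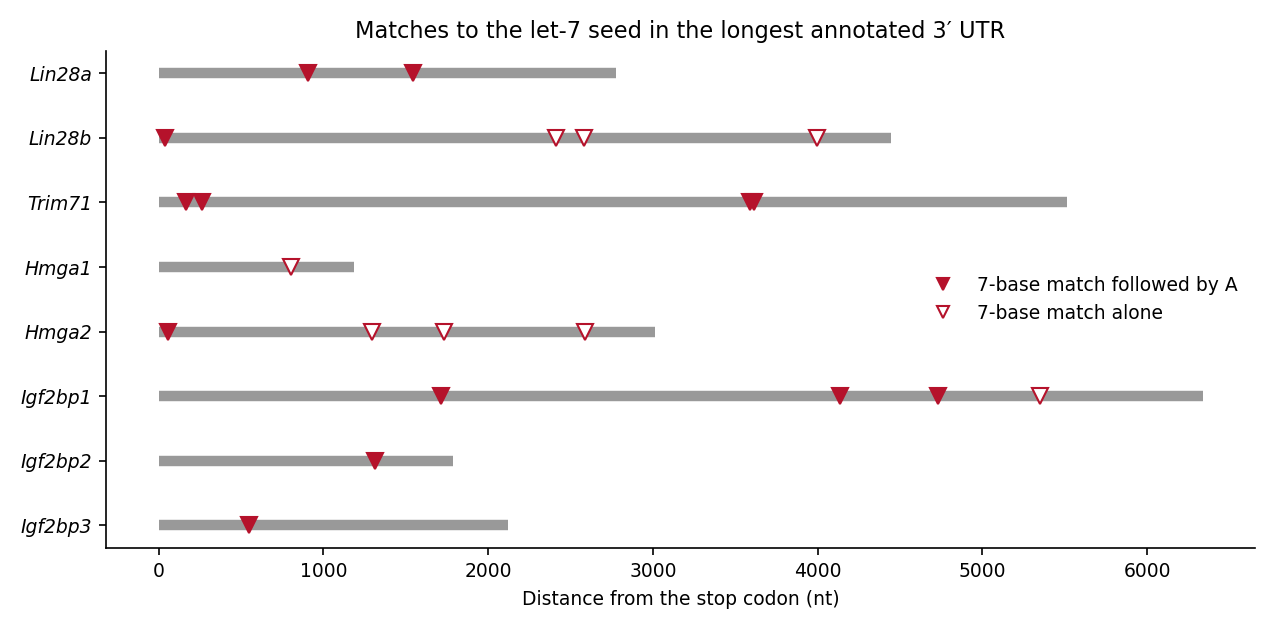
Position of each match to the let-7 seed along the longest annotated 3′ UTR of the 8 genes (x axis: distance from the stop codon in nucleotides, grey bar: the 3′ UTR). Filled marks are followed by A and open marks are not, and Trim71 shows 4 filled marks while Hmga2 shows 1 filled and 3 open.

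Values are edgeR pseudo-counts, that is, counts per gene after equalizing the libraries in size, and rest on 38110410 to 52946856 reads on genes per library. The pair of MEF libraries differed much less than any other pair: the coefficient of variation beyond counting error was 1.88%, and outside MEF it was 16.1% to 19.6%. The labels were checked with marker genes. All 10 fibroblast markers were lower in pre-iPS and iPS lines than in MEF, and their summed value was 2898555 to 3041370 in MEF, 21918 to 23188 in pre-iPS and 20808 to 35684 in the iPS libraries. All 8 markers of naive pluripotency were higher in the iPS lines than in MEF, and their sum was 203 to 222 in MEF, 18443 to 19499 in pre-iPS and 35564 to 85691 in iPS libraries. The pre-iPS line lacked part of them, with mean values of 330 for Nanog, 23.5 for Esrrb and 6.48 for Dppa3, while Zfp42 stood at 6306. Macrophage markers summed to 10937 to 10944 in MEF, 892 to 1657 in pre-iPS and 432 to 1268 in iPS libraries, with Lyz2 at 6888 in MEF and at most 7.24 as a line mean elsewhere and Emr1 listed at 0 in pre-iPS. Of the 5 macrophage markers, 4 were called lower in both comparisons with MEF. The other, Cd68, was not called in either and had means of 741 in MEF, 1209 in pre-iPS and 600, 773 and 890 in control iPS, clone 1 and clone 2, which is most of the sum outside MEF. The part of macrophages in the values below was not tested. In bulk RNA, fewer cells of a type and less RNA per cell cannot be told apart.

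Lin28a separated iPS lines from both other states. Its value was 20.7 and 7.55 in MEF, 55.1 and 49.9 in pre-iPS, 9516 and 9421 in control iPS, 6033 and 6193 in clone 1, and 4809 and 7000 in clone 2. Every iPS library lay far above the pre-iPS libraries, which in turn lay above MEF, where the values rest on 18 and 7 reads. The mean over the 6 iPS libraries was 7162 ± 1919 (SD, n = 6), which was 136 times the pre-iPS mean and 507 times the MEF mean. The log2 fold change was 9.0 ± 0.30 (SE) for iPS lines against MEF (limma adjusted p = 3.67e-08) and 7.02 ± 0.30 for iPS lines against pre-iPS (limma adjusted p = 3.06e-06). Pre-iPS exceeded MEF by 1.97 ± 0.37 (limma adjusted p = 0.0012). These sizes rest on few MEF reads. Without the passage 2 library of MEF they were 9.67 for iPS lines and 2.64 for pre-iPS against MEF, and without that of passage 4 they were 8.32 and 1.3, all still called.

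Lin28b, the paralogue that many embryonic and tumour cells use instead, was on in pre-iPS as well. It was 10.6 and 8.48 in MEF, 1305 and 1853 in pre-iPS, 1661 and 2052 in control iPS, 1746 and 2465 in clone 1, and 1560 and 1597 in clone 2. Of the pre-iPS values, 1853 lay within the range of the iPS libraries and 1305 below it, and MEF stood apart. The log2 fold change against MEF was 7.21 ± 0.22 in pre-iPS (limma adjusted p = 4.07e-08) and 7.44 ± 0.18 in iPS lines (limma adjusted p = 9.22e-09). Between iPS lines and pre-iPS it was 0.23 ± 0.18, which did not pass (limma adjusted p = 0.353), and it turned to -0.02 without the passage 5 library of pre-iPS. The means of neighbouring lines (2105 in clone 1, 1857 in control iPS, 1579 in pre-iPS and 1578 in clone 2) had overlapping libraries.

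To set paralogues side by side, values were put on a scale per kb of exon, with all annotated exons of a gene merged. On this scale Lin28a made up 85.1% to 92.9% of the Lin28 sum in the 6 iPS libraries. In the pre-iPS libraries it made up 8.74% and 5.76%, the rest being Lin28b. The sum of both per kb was 1376 to 2584 in the iPS libraries, 158 and 217 in pre-iPS, and 6.35 and 2.82 in MEF. The pre-iPS line held more Lin28 RNA than MEF and less than any iPS library, and nearly all of it was Lin28b. For MEF the split rests on too few reads to be read.

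**Figure D2:**
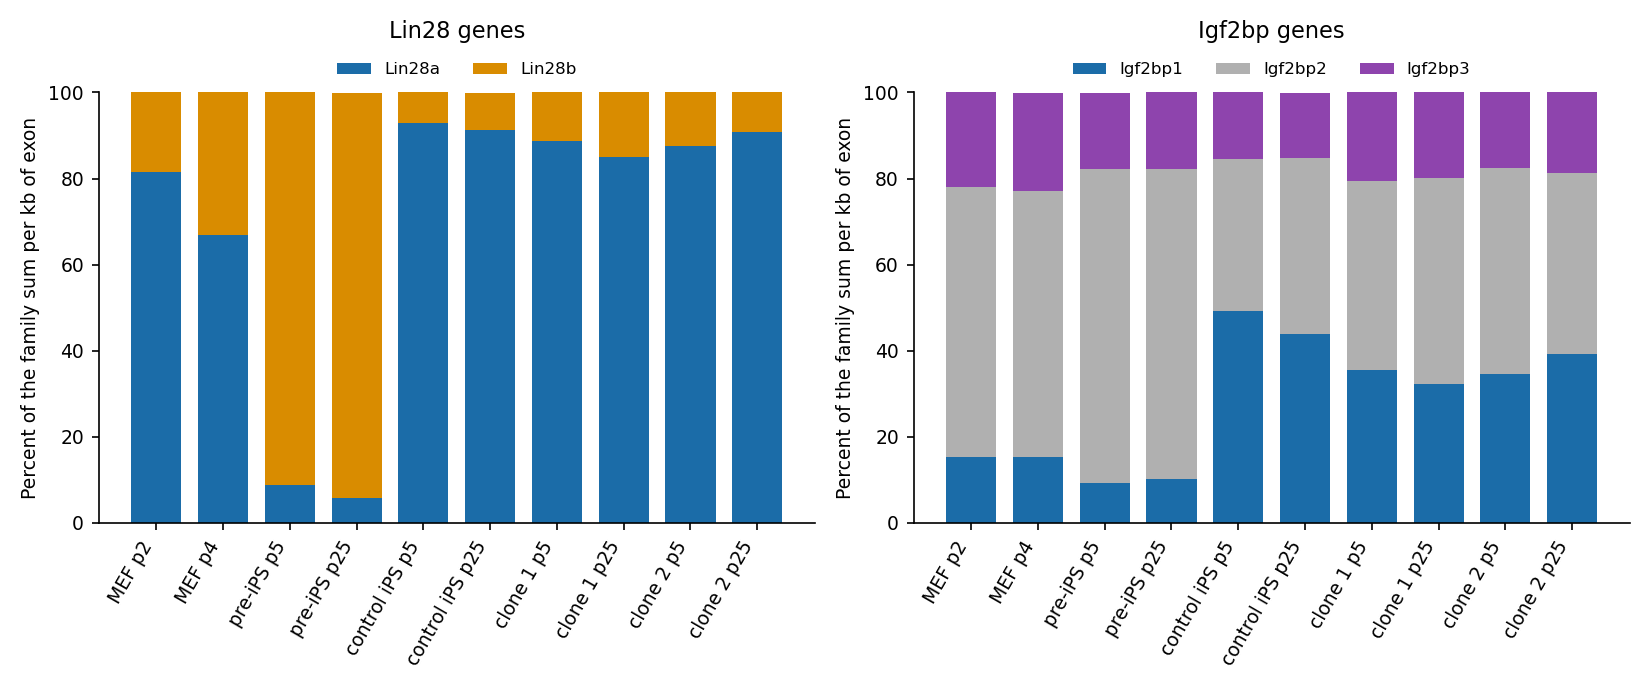
Share of each paralogue in the sum of its family in every library (y axis: percent of the summed value per kb of exon, bars stacked to 100%). Lin28b fills 91.3% and 94.2% of the Lin28 bars in pre-iPS, and Igf2bp1 fills 9.27% to 15.3% of the Igf2bp bars in pre-iPS and MEF and 32.3% to 49.3% in the iPS libraries.

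Trim71, an RNA-binding ubiquitin ligase of early embryos and a classical let-7 target, took a middle level in pre-iPS. It was 19.3 and 28.4 in MEF, 427 and 580 in pre-iPS, 2706 and 2270 in control iPS, 1796 and 1574 in clone 1, and 1772 and 2142 in clone 2. Libraries of the 3 states did not overlap. Pre-iPS exceeded MEF by a log2 fold change of 4.35 ± 0.22 (limma adjusted p = 4.92e-07), and iPS lines exceeded pre-iPS by 2.01 ± 0.18 (limma adjusted p = 7.76e-05). Against MEF the iPS lines were higher by 6.36 ± 0.18 (limma adjusted p = 1.62e-08), which set the mean of the pre-iPS libraries at 24.7% of the iPS mean.

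Across the axis genes the number called was counted with a limma adjusted p under 0.05 and a log2 fold change of at least 1. For iPS lines against MEF, 5 of the 8 were called higher (Lin28a, Lin28b, Trim71, Hmga1 and Igf2bp1), where 26.6% of all genes tested were higher, and 0 were called lower, where 21.6% were. For pre-iPS against MEF, 4 were called higher (Lin28a, Lin28b, Trim71 and Hmga1), where 22.4% of all genes were, and 1 lower (Hmga2), where 20.9% were. For iPS lines against pre-iPS, 3 were called higher (Lin28a, Trim71 and Igf2bp1), where 11.6% were, and 0 lower, where 4.71% were. The median log2 fold change of the 8 genes was 1.94, 0.96 and 0.43 in the 3 comparisons, against 0.09, 0.06 and 0.00 over all genes tested. These comparisons share libraries. Scaling to 4 housekeeping genes moved the median of all genes to -0.30 for iPS lines and -0.34 for pre-iPS against MEF, and the share of higher calls among all calls from 55.2% to 41.8% and from 51.7% to 36.6%. With quantile normalization that share went from 71.1% to 52.5% for iPS lines against pre-iPS. The direction of every member called stayed the same under both scalings, but quantile normalization lowered several fold changes by more than 1.5 times. Against MEF the log2 fold change for iPS lines then became 8.17 for Lin28a, 6.60 for Lin28b, 5.63 for Trim71 and 1.28 for Hmga1, and that for pre-iPS became 1.32 for Lin28a, 6.29 for Lin28b and 3.56 for Trim71, all still called.

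**Figure D3:**
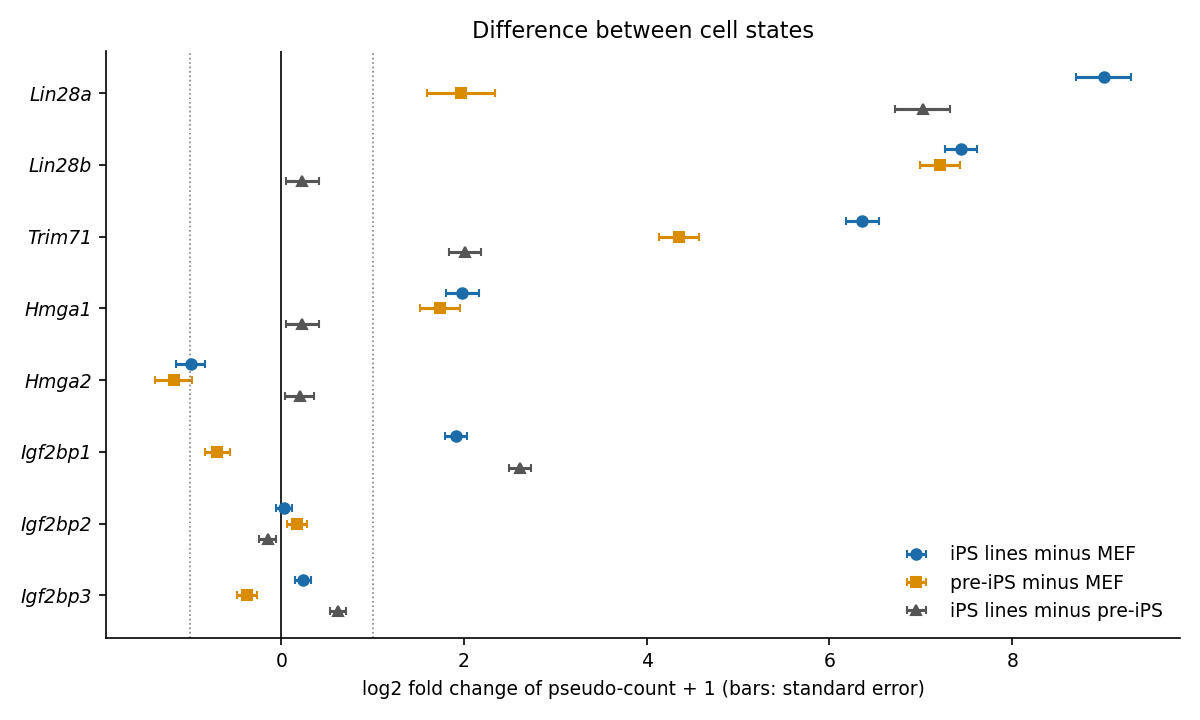
Log2 fold change with its standard error for the 8 genes in the 3 comparisons of cell states (x axis: log2 fold change of pseudo-count + 1, dotted lines at -1 and 1). Lin28a lies at 9.0 and 7.02 where iPS lines are compared and at 1.97 for pre-iPS against MEF, Lin28b lies at 7.44 and 7.21 against MEF and at 0.23 between iPS lines and pre-iPS, and Igf2bp2 stays between -0.15 and 0.17.

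In a two-sided exact permutation test over libraries, iPS lines against MEF gave p = 0.0357 for Lin28a, Lin28b, Trim71, Hmga1, Hmga2 and Igf2bp1, the smallest value that 6 against 2 libraries can give. These are the 6 of the 8 genes whose iPS and MEF libraries did not overlap, which 80.0% of all genes tested shared. The same smallest value was reached for iPS lines against pre-iPS by Lin28a, Trim71, Igf2bp1 and Igf2bp3, and 41.8% of all genes were without overlap there. With 2 against 2 libraries, as in pre-iPS against MEF, an exact test cannot go below 0.333.

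The pair of Hmga genes, which encode chromatin proteins that bend AT-rich DNA, went opposite ways. Hmga2 was highest in MEF, at 11905 and 11892, and was 4970 and 5521 in pre-iPS, 4085 and 6505 in control iPS, 6987 and 8715 in clone 1, and 5017 and 5734 in clone 2. All 8 pre-iPS and iPS libraries lay below MEF. The fold was just under the minimum for iPS lines, at a log2 fold change of -0.99 ± 0.16 (limma adjusted p = 0.000456), and past it for pre-iPS, at -1.18 ± 0.20 (limma adjusted p = 0.000671). Relative to the median of all genes these were -1.08 and -1.24, and with quantile normalization the values were -0.60 and -0.84, which ends the call in pre-iPS. Scaling to housekeeping genes gave -1.38 for iPS lines (limma adjusted p = 5.61e-05), which adds Hmga2 as called lower and makes 6 of the 8 genes called, and -1.60 for pre-iPS. The value for iPS lines passed the fold minimum without the passage 25 library of control iPS (-1.10), of clone 1 (-1.04) or of clone 2 (-1.02). Hmga2 had the most seed matches per kb of 3′ UTR of the 8 genes and was lower in pre-iPS and iPS lines than in MEF. Of the other genes with 4 matches, Lin28b and Trim71 were higher than in MEF in both. Igf2bp1 was higher in iPS lines and lower in pre-iPS, there by less than the fold minimum.

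Hmga1 was 48.6 and 50.6 in MEF, 158 and 180 in pre-iPS, 172 and 235 in control iPS, 236 and 273 in clone 1, and 167 and 140 in clone 2. MEF stood below all other libraries, by a log2 fold change of 1.98 ± 0.18 from iPS lines (limma adjusted p = 9.38e-06) and of 1.74 ± 0.22 from pre-iPS (limma adjusted p = 0.000111). Its level is uncertain, because only 14% of the 50-base stretches of its transcript occur in no other annotated gene. The annotated genes that share the rest are Hmga1b and AI413582. How reads that map to several places were counted is not given in the sources used here. For the other genes that share was 65.5% in Igf2bp3, which overlaps Malsu1, and at least 95.6% in the remaining 6.

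The Igf2bp genes encode RNA-binding proteins that stabilize and localize mRNAs, Igf2 and Myc mRNA among them, and 3 different patterns were seen. Igf2bp1 was 2415 and 2413 in MEF, 1340 and 1652 in pre-iPS, 11261 and 9603 in control iPS, 8061 and 8286 in clone 1, and 7743 and 9979 in clone 2. All iPS libraries were above MEF and MEF above pre-iPS. The log2 fold change was 2.61 ± 0.12 for iPS lines against pre-iPS (limma adjusted p = 3.08e-06) and 1.91 ± 0.12 against MEF (limma adjusted p = 8.05e-07). For pre-iPS against MEF it was -0.70 ± 0.14 (limma adjusted p = 0.00204), under the fold minimum as deposited and past it, at -1.11, after scaling to housekeeping genes.

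Igf2bp2 moved least. It was 7554 and 7431 in MEF, 8072 and 8856 in pre-iPS, 6176 and 6807 in control iPS, 7592 and 9368 in clone 1, and 8171 and 8173 in clone 2. Libraries of iPS lines lay on both sides of MEF, with a log2 fold change of 0.03 ± 0.09 (limma adjusted p = 0.764) that turned to -0.36 after scaling to housekeeping genes. Pre-iPS differed from MEF by 0.17 ± 0.11 (limma adjusted p = 0.169), which turned to -0.24 under that scaling, and iPS lines from pre-iPS by -0.15 ± 0.09 (limma adjusted p = 0.213).

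Igf2bp3 was 2907 and 3044 in MEF, 2162 and 2402 in pre-iPS, 2963 and 2784 in control iPS, 3946 and 4316 in clone 1, and 3295 and 4021 in clone 2. All iPS libraries lay above pre-iPS, by a log2 fold change of 0.62 ± 0.09 (limma adjusted p = 0.000968), which is less than the fold minimum. The control iPS libraries overlapped MEF, and the log2 fold change of iPS lines against MEF was 0.24 ± 0.09 (limma adjusted p = 0.036), which turned to -0.15 after scaling to housekeeping genes.

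Per kb of exon the Igf2bp sum changed less than its make-up. It was 1626 in both MEF libraries, 1494 and 1662 in pre-iPS, and 2253 to 2650 in the iPS libraries. Igf2bp2 was the main member in MEF (62.8% and 61.7%) and in pre-iPS (73.0% and 72.0%). By merged exon length Igf2bp1 was the largest in control iPS, at 49.3% and 44.0%. In clone 1 and clone 2 Igf2bp2 was, at 42.0% to 47.8%, with Igf2bp1 at 32.3% to 39.2%. Merged exons span 9682 bases in Igf2bp1 and 7402 in Igf2bp2, while the transcripts with the longest 3′ UTR span 8378 and 3899. Which of the 2 genes is larger in control iPS therefore depends on the length used.

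**Figure D4:**
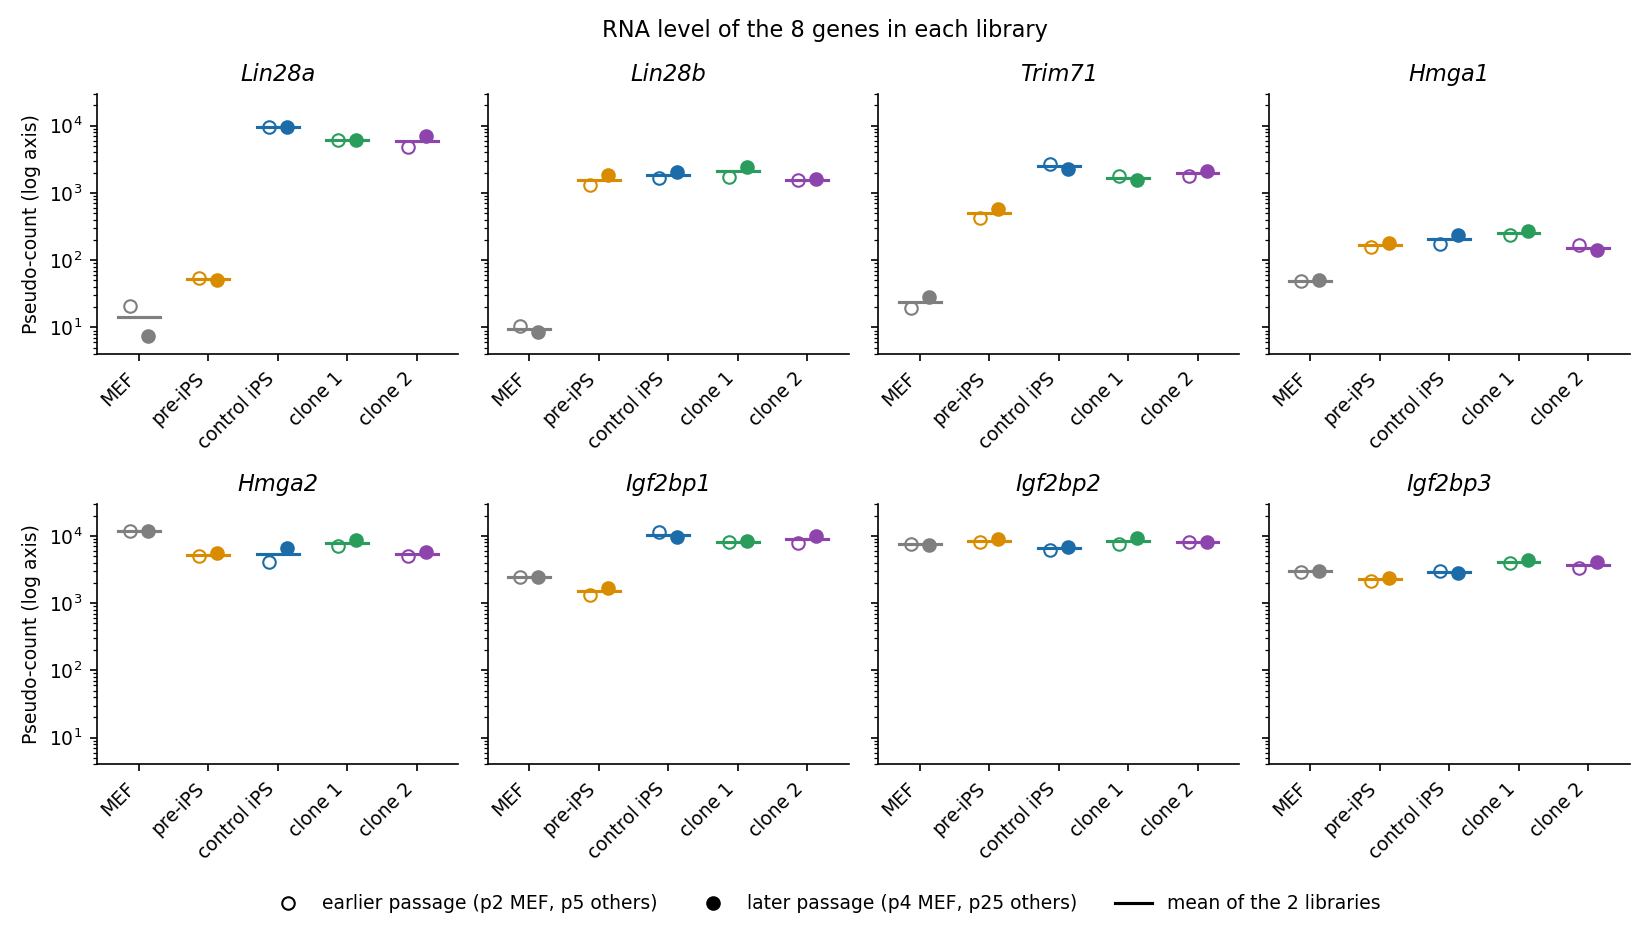
Pseudo-count of the 8 genes in every library (y axis: log scale, x axis: line, open circles: earlier passage, filled circles: later passage, bars: mean of the 2 libraries). Lin28a steps up from 52.5 on average in pre-iPS to between 4809 and 9516 in the iPS libraries, Lin28b already from MEF to pre-iPS, and Hmga2 is highest in MEF.

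To see whether derivation with rNetrin-1 went with another level of these genes, clone 1 and clone 2 were compared with the control iPS line. None of the 8 was called, where 2.11% of all genes were, and edgeR on the recovered reads also called 0. Unadjusted p was under 0.05 for 4 of the 8 with limma and 5 with edgeR. Over all 17075 genes tested these counts were 3066 and 3109. All clone libraries lay below both control libraries for Lin28a and Trim71 and above both for Igf2bp2 and Igf2bp3, and such a separation was seen for 21.3% of all genes. Lin28a differed by -0.67 ± 0.32 (limma adjusted p = 0.323), Trim71 by -0.45 ± 0.19 (limma adjusted p = 0.257), Igf2bp2 by 0.36 ± 0.09 (limma adjusted p = 0.0733) and Igf2bp3 by 0.43 ± 0.10 (limma adjusted p = 0.0447). Igf2bp3 was the single gene of the 8 under an adjusted p of 0.05 without the fold minimum, a rule that 4.08% of all genes met. A fit with passage as a replicate block over the pre-iPS and iPS libraries gave the same fold changes. Its limma adjusted p was 0.0265 for Lin28a, 0.0268 for Igf2bp2 and 0.0241 for Igf2bp3. That fit also left out MEF, whose Lin28a values of 20.7 and 7.55 enter the shared spread of the main fit. By the main rule it called 564 of all genes, against 360 in the main fit. Its share of all genes under an adjusted p of 0.05 alone was not counted. Whether the block or the absence of MEF lowered these values was not tested. The smallest p that an exact permutation test of 4 against 2 libraries can give is 0.0667. With a single control line, a difference between lines and one with rNetrin-1 cannot be told apart.

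For Lin28b the difference between clones and control was -0.03 ± 0.19 (limma adjusted p = 0.967), for Hmga1 -0.03 ± 0.19 (limma adjusted p = 0.965), for Hmga2 0.33 ± 0.17 (limma adjusted p = 0.376) and for Igf2bp1 -0.29 ± 0.12 (limma adjusted p = 0.254). The sign of the Hmga2 value rests on the passage 5 library of the control, without which it was -0.01.

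Clone 2 differed from clone 1 in none of the 8 genes by the same rule, where 0.966% of all genes were called. Here edgeR called 0 of the 8. An unadjusted limma p under 0.05 was found for 2 of the 8 and for 2831 of all 17075 genes tested. The lowest adjusted p was that of Hmga1, at -0.73 ± 0.22 (limma adjusted p = 0.151), followed by Hmga2 at -0.54 ± 0.20 (limma adjusted p = 0.23). In both genes, and in Lin28b, the 2 libraries of clone 2 lay below those of clone 1, and 42.8% of all genes had no overlap between the clones. The naive pluripotency markers differed between the clones, 4 of the 8 being higher in clone 2 and 0 lower, and their sum was 49525 and 35564 in clone 1 and 75565 and 85691 in clone 2. Its part in the Hmga values was not tested.

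Passage was compared within the pre-iPS and iPS lines, each line giving 1 library at passage 5 and 1 at passage 25. None of the 8 genes was called, where 1.69% of all genes were, and edgeR called 0 of the 8. An unadjusted limma p under 0.05 was found for 3 of the 8 and for 4971 of all 17075 genes tested. Hmga2 was higher at passage 25 in 4 of 4 lines, by 0.33 ± 0.09 on average (limma adjusted p = 0.0523), from 0.15 in pre-iPS to 0.67 in control iPS. Lin28b was higher in 4 of 4 lines, by 0.34 ± 0.09 (limma adjusted p = 0.0533), from 0.03 in clone 2 to 0.51 in pre-iPS. Igf2bp2 differed by 0.14 ± 0.06 (limma adjusted p = 0.153), up to 0.30 in clone 1. In clone 2 it was practically unchanged, at 8171 and 8173, though counted as higher. Of all genes tested, 15.1% were higher at passage 25 in the 4 lines. Lin28a had no common direction, with -0.14, -0.01, 0.04 and 0.54 in pre-iPS, control iPS, clone 1 and clone 2. The smallest p that an exact permutation test can give with 4 paired lines is 0.125.

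**Figure D5:**
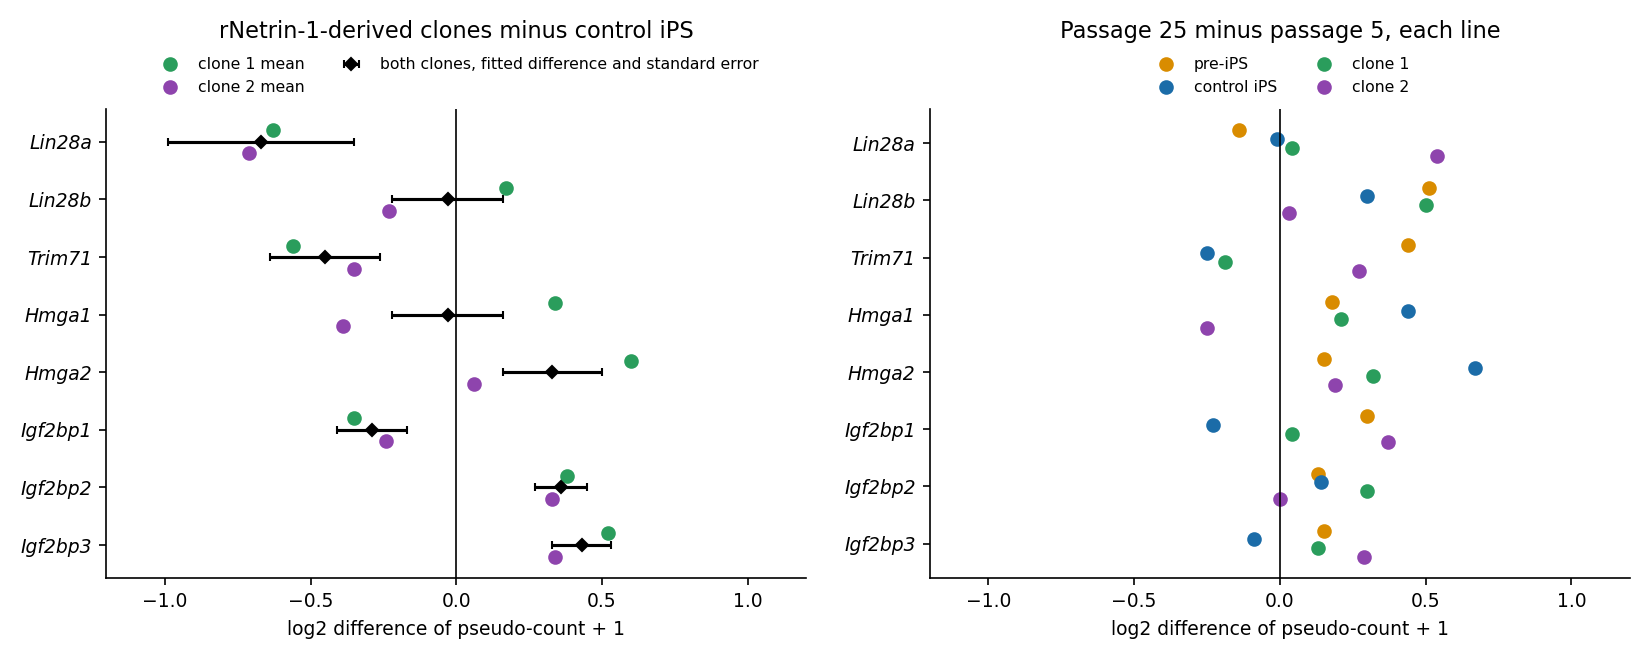
Left, log2 difference of clone 1 and clone 2 from control iPS, with the fitted difference of both and its standard error (black). Right, log2 difference between passage 25 and passage 5 in each line (x axes: log2 difference of pseudo-count + 1). Hmga1 has the clones on opposite sides of 0, and Lin28b and Hmga2 have all 4 lines above 0 on the right.

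Of 18 genes of let-7 processing and decay, 2 were called higher and 1 lower in iPS lines against MEF. That is 11.1% and 5.6% of them, beside 26.6% and 21.6% of all genes. Their median log2 fold change was 0.13, against 0.09 over all genes. Dis3l2, the exonuclease that degrades uridylated let-7 precursors, was 608 on average in MEF, 2705 in pre-iPS and 1386, 1546 and 1608 in control iPS, clone 1 and clone 2. It was called higher in both comparisons with MEF, most in pre-iPS (2.15 ± 0.11, limma adjusted p = 5.57e-07). Hnrnpa1, an RNA-binding protein that blocks processing of let-7a, was 303 in MEF and 795 in pre-iPS and was called higher too, but this gene has many processed copies in the genome and its level is uncertain. Eif2c4, an Argonaute protein now named Ago4, was lower in iPS lines (249 in MEF and 90.5 to 106 as iPS line means). None of the 18 was called between iPS lines and pre-iPS (median 0.09), where 11.6% of all genes were higher and 4.71% lower. For pre-iPS against MEF, 3 were higher and 1 lower, with a median of -0.03. That is 16.7% and 5.6% of them, beside 22.4% and 20.9% of all genes.

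Of 25 other let-7 targets, 6 were called higher and 5 lower in iPS lines against MEF (median 0.34, against 0.09 over all genes), which is 24.0% and 20.0% of them beside 26.6% and 21.6% of all genes. For pre-iPS against MEF, 7 were higher and 7 lower (median 0.28, against 0.06), beside 22.4% and 20.9% of all genes. The highest rises were those of Mycn, a Myc family factor, with means of 99.2 in MEF, 214 in pre-iPS and 1475 to 2251 in the iPS lines, and of Nr6a1, an orphan nuclear receptor of embryonic cells, with 244, 693 and 3345 to 5638. Nr6a1 also held 8 seed matches, the most of any gene. Col3a1 and Thbs1, a collagen and a matrix glycoprotein of fibroblasts, fell most, from 658240 to between 3152 and 4165 and from 477441 to between 2321 and 3643. Against pre-iPS, 5 were called higher and 1 lower (median 0.29, against 0.00), which is 20.0% and 4.0%, beside 11.6% and 4.71% of all genes. Mycn and Nr6a1 again led, by 3.0 ± 0.21 (limma adjusted p = 2.12e-05) for Mycn and 2.55 ± 0.11 for Nr6a1 (limma adjusted p = 3.06e-06). Plagl2, a zinc finger factor, was the one called lower, at -1.08 ± 0.12 (limma adjusted p = 0.00027).

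The list made from sequence alone, genes with 3 or more seed matches, had 29 of its 32 genes in the table, 26 by symbol and 3 by an older symbol, and 28 were tested. Of these, 12 were called higher and 2 lower in iPS lines against MEF, with a median of 0.27, beside 0.09 over all genes. That is 42.9% and 7.1% of them, beside 26.6% and 21.6% of all genes. Without the 4 genes of the axis that it contains, 9 of 24 were higher and 2 lower (37.5% and 8.3%), with a median of 0.20. The median against pre-iPS was then 0.06. A count of matches does not say that let-7 acts on a gene in these cells.

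Of 10 other oncofetal genes, 2 were called higher and 6 lower in iPS lines against MEF (median -1.22, against 0.09 over all genes). Of all genes, 26.6% were called higher and 21.6% lower in that comparison. Sall4, a zinc finger factor of pluripotent cells, rose from 8.41 in MEF to 852 in pre-iPS and 3346 to 5640 in the iPS lines, and Mdk, a growth factor, from 777 to 4265 and 7726 to 9502. Igf2, whose mRNA is bound by the Igf2bp proteins, and Ptn, a relative of Mdk, fell furthest, Igf2 from 137082 in MEF to 611 in pre-iPS and 1768 to 2834 in the iPS lines, and Ptn from 51975 to 224 and 639 to 956. Against pre-iPS 6 of the 10 were called higher and 0 lower (median 1.35), where 11.6% and 4.71% of all genes were. Gpc3, a cell surface glypican, rose most of all from pre-iPS, with 135 there and 957 to 1250 in the iPS lines. Its mean in MEF was 8977, and it was called lower in iPS lines than in MEF. Rises and falls from MEF stood side by side within this list, as they did within the 8 genes.

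Of 15 host transcripts of let-7 genes, 6 were listed and 2 tested, Huwe1 and Wdr82, and neither was called in any of the 6 comparisons. The entries named Mirlet7b, Mirlet7d, Mirlet7e and Mirlet7i had line means of at most 6.11 and were not tested. Such entries count stray reads of the primary transcript and not the mature microRNA.

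The genes most like each of the 8 over the 10 libraries were found by Pearson's r of log2(value + 1) among 14043 genes with a mean value of at least 50. These r values describe shared steps between MEF, pre-iPS and iPS, since the libraries fall into these groups. Lin28a was most like 2410003L11Rik (r = 0.9985), Ina (0.9982), a neuronal intermediate filament, and Vrtn (0.9957), all near 0 in MEF and low in pre-iPS. Vrtn, for example, had means of 0.578 in MEF, 7.38 in pre-iPS and 496 in iPS libraries. Lin28b was most like Wdr43 (r = 0.9989), Impdh2 (0.9988), an enzyme of guanine nucleotide synthesis, and Zic2 (0.9983), which had like values in pre-iPS and iPS. Zic2, a zinc finger factor, had means of 375 in MEF, 5312 in pre-iPS and 5598 in iPS libraries. Trim71 was most like Wdr77, Zfp473 and Kpna2 (r = 0.9972 to 0.9979), which rose in both steps, and Hmga1 like Sftpd, Eif3l and Pdxk (0.9869 to 0.9898).

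Hmga2 was most like Irx5 (r = 0.9596), a homeobox factor with means of 910 in MEF, 124 in pre-iPS and 186 in iPS libraries, followed by Klhl23 (0.9507) and Apbb1ip (0.9467). Igf2bp1 was most like Pramef12 (r = 0.9914), Rbpms2 (0.9896) and Lrp2 (0.9871), an endocytic receptor of embryonic epithelia, which had means of 377 in MEF, 107 in pre-iPS and 2891 in iPS libraries and so shared the low point in pre-iPS. For Igf2bp2 and Igf2bp3, which varied least, likeness was lower, with Plag1, Bcat1 and Nnt (0.9035 to 0.9122) and Mbip, 3110001D03Rik and Trim59 (0.8519 to 0.8742). Plag1 is itself an oncofetal zinc finger factor, with means of 560 in MEF, 979 in pre-iPS, 458 in control iPS, and 873 and 954 in clone 1 and clone 2.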

How the data were processed

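Poly(A) RNA of 5 lines with 2 libraries each was sequenced as single 50-base reads with a kit that does not keep the strand. The authors deposited 1 table of signal values, edgeR pseudo-counts of 18901 genes, which are counts after equalizing library size. The submitters' processing notes name mm10, CASAVA 1.8.2, TopHat2 2.0.8b, HTSeq 0.5.3p9 and edgeR. Since whole reads could be recovered from the values (100% within 0.1 reads), depth is known: 38110410 to 52946856 reads on genes per library.

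Values were tested as log2(value + 1) with limma 3.58.1 in R 4.3.3 over the 17075 genes that reached a value of 10 in 2 or more libraries. The fit had 1 mean per line and a spread shared by all 10 libraries, the closely alike MEF pair included. For Lin28a that pair was not closely alike, at 20.7 and 7.55. Fitted over only the lines compared, genes called fell from 360 to 134 for clones against control. For clone 2 against clone 1 they fell from 165 to 6, so the shares of all genes called there depend on this choice. P-values were adjusted after Benjamini-Hochberg over all genes tested. A fold change on this scale understates the change of low genes. edgeR 4.0.16 was run on the recovered reads as an alternative. Single genes were also compared with two-sided exact permutation tests, computed with Python 3.11.15. The scripts were tested on simulated data. Samples of 1 passage deviated together in the pre-iPS and iPS lines (correlation 0.235 to 0.504 over 6 pairs of lines), so passage numbers pair the libraries, and a fit with passage as a replicate block was run. The 3′ UTRs came from GENCODE M21 and microRNA sequences from RefSeq (GRCm38.p6). All 8 genes matched by symbol. The genes and the lists of other genes were chosen with earlier results of these data known. Genes named beside the 8 are the 2 called genes with the largest rises and the 2 with the largest falls of each list in iPS lines against MEF and against pre-iPS, and the 3 genes most like each of the 8. Markers and the tested let-7 host genes are named in full or for their low level, after their values were seen.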

Additional observations from a re-analysis of the deposited data

Results flagged for a closer look

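For Hmga1 the control iPS line lay between the rNetrin-1-derived clones. Both clone 1 libraries (236 and 273) lay above both control libraries (172 and 235), and both clone 2 libraries (167 and 140) lay below them. The nearest values, 236 and 235, rest on 266 and 225 reads and differ by less than counting error. No overlap was seen between the clones in 42.8% of all genes tested. Both clones lay on the same side of the control without overlap in 21.3%, which Hmga1 did not do. The share of genes with the control between the clones was not counted. The log2 difference of clone 2 from clone 1 was -0.73 ± 0.22 (limma adjusted p = 0.151), so the difference itself did not pass the threshold. The level of this gene is uncertain, since only 14% of its 50-base stretches occur in no other annotated gene.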

How the results depend on the processing

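Of 944 fold changes of the 8 genes under 22 alternatives (48 results), 910 kept their direction and their side of the threshold, 22 reversed, 11 passed newly and 1 no longer passed. Dropping the fold minimum gave 1 gene called for rNetrin-1-derived clones against control (0 with it). limma and edgeR called the same genes of the 8 in the 3 comparisons of states (5, 5 and 3 called by both), and leaving out 1 library moved these counts to between 5 and 6 for iPS lines against MEF and left the others as they were. Scaling to housekeeping genes reversed Igf2bp2 for iPS lines (-0.36, limma adjusted p = 0.00496) and pre-iPS (-0.24) against MEF and Igf2bp3 for iPS lines (-0.15). Relative to the median of all genes these 3 values were -0.06, 0.12 and 0.15 as deposited and -0.06, 0.09 and 0.15 after that scaling. The 4 housekeeping genes themselves had a median log2 fold change of 0.52 for iPS lines and 0.47 for pre-iPS against MEF. Quantile normalization reversed Hmga1 for clones against control (0.0021), and using the 6 iPS libraries alone reversed Trim71 for passage (-0.057). When each library was left out in turn, values ranged from -0.021 to 0.080 for Igf2bp2 in iPS lines against MEF and from -0.025 to 0.48 for Lin28b in iPS lines against pre-iPS. For clones against control they ranged from -0.18 to 0.12 for Lin28b, from -0.25 to 0.19 for Hmga1 and from -0.0078 to 0.66 for Hmga2. For clone 2 against clone 1 they ranged from -0.35 to 0.20 for Lin28a, from -0.078 to 0.29 for Igf2bp1 and from -0.20 to 0.11 for Igf2bp2, and for passage from -0.039 to 0.19 for Lin28a and from -0.057 to 0.17 for Trim71. The cause of these reversals was not tested. The replicate block changed no call, for example Lin28a at 7.02 for iPS lines against pre-iPS, and taking the line out of the passage comparison (no replicate block) left 0 called.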
